A study of Mus musculus with 20 samples.

Results

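The liver clears bile acids, bilirubin, steroid conjugates and many drugs by taking organic anions up from the blood and passing them on, and the 10 genes described here encode carriers and pumps of that route. They are 6 uptake genes (Slco1a1, Slco1a4, Slco1b2, Slco2b1, Slc22a7 and Slc22a26) and 4 efflux genes (Abcc2, Abcc3, Abcc4 and Abcg2). Every probe set whose only gene symbol was one of these 10 was taken, which gave 18 of the 45141 probe sets and 10 of the 17097 genes measured. The values come from liver RNA of 20 mice aged 11 weeks, 1 Affymetrix array per mouse and 5 mice in each of 4 groups. Progeroid mice were Ercc1Δ/-, which combines a truncated with a null allele of Ercc1, a gene for a DNA repair endonuclease subunit, in all tissues. The comparison group was wild type littermates, and all 4 groups shared the F1 C57BL6J/FVB hybrid background and AIN93G synthetic pellets. In each genotype 1 group had the control diet and 1 a restricted diet, which began at 7 weeks of age with 10% less food and reached 30% less at 9 weeks. Wild type mice ate 3.0 g per day on average, and restricted wild type mice received 2.1 g per day. Food was given shortly before the dark period. The labels give no sex, and the Y-linked gene Eif2s3y lay between 9.57 and 10.19 on all 20 arrays.

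Uptake across the sinusoidal membrane of the hepatocyte, which faces the blood, is carried out by organic anion transporting polypeptides (Slco genes) and organic anion transporters (Slc22 genes). Efflux pumps of the ABC family move conjugates either across the canalicular membrane into bile or back across the basolateral membrane into blood. In rodent liver several of these genes differ between the sexes under the control of growth hormone, and others respond to nuclear receptors that sense bile acids and foreign compounds. Slco1a1 is known as a male-predominant carrier and Slco1a4 as a female-predominant carrier of mouse liver.

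All levels are log2 values after robust multi-array averaging (RMA), so a difference of 1 is a 2-fold change, and levels of different probe sets are not compared with each other. Errors of levels are standard deviations (SD) and those of differences are standard errors (SE), with n = 5 mice per group throughout. A gene was called at an adjusted p under 0.05 in limma's moderated test, adjusted by Benjamini-Hochberg over all 17097 genes of a comparison, and adjusted p-values below are from that fit unless another is named. Ercc1 itself was lower in progeroid mice by 1.24 ± 0.0982 on the control diet (adjusted p = 8.73e-08) and by 1.35 ± 0.0982 on the restricted diet (adjusted p = 1.50e-08). The tissue label was borne out by 6 hepatocyte markers, whose mean level was 12.99 to 13.23 on all arrays. All 5 measured cholangiocyte markers lay under 5 in every group. In bulk liver fewer cells of a type and less RNA per cell cannot be told apart.

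Starts of transcription are shown for 5 members whose levels moved most clearly, to set the neighbouring pair Slco1a1 and Slco1a4, which moved in opposite directions, beside Slc22a26, Abcg2 and Abcc4. The sequences are from RefSeq on GRCm38.p6, run 5′ to 3′ on the gene's strand, and cover 250 bases before and 30 bases after an annotated start. Of the 10 members 8 were in the table of promoter windows, and Slc22a7 and Abcc3 were not. Where a gene had several windows, the one farthest out at its 5′ end is printed. Capitals mark matches on either strand to 7 short motifs. They are the antioxidant response element TGACNNNGC, the aryl hydrocarbon receptor (AHR) core GCGTG, the STAT element TTCNNNGAA, the nuclear receptor half-site AGGTCA, the E-box CACGTG, the D-box TTANGTAA and the HNF1 half-site GTTAAT.
Slco1a1: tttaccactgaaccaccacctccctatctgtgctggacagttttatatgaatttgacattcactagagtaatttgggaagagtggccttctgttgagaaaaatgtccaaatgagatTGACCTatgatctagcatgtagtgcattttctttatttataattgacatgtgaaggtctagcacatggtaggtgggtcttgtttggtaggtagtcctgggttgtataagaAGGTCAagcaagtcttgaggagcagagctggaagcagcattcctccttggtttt
Slco1a4: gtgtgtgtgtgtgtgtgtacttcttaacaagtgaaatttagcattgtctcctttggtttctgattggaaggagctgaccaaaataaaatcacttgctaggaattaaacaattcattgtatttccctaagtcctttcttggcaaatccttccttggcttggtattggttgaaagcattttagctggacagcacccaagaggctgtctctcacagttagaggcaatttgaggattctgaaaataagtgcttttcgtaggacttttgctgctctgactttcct
Slc22a26: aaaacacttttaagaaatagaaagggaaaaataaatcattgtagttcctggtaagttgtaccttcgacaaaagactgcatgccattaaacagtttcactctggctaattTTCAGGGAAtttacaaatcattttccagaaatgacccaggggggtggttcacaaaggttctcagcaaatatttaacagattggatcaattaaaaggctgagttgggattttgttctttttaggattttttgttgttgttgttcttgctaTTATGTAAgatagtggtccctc
Abcg2: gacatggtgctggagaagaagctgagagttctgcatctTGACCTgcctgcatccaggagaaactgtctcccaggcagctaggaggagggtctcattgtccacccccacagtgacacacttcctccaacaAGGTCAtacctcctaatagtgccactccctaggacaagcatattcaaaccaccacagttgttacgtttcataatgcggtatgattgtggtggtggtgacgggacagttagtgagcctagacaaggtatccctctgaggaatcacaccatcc
Abcc4: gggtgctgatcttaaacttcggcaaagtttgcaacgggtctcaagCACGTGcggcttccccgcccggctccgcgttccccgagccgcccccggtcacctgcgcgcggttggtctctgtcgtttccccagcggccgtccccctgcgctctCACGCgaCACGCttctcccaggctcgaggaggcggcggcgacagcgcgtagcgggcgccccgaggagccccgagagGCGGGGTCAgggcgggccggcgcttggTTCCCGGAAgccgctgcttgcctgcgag

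Positions are counted from the start of transcription, with negative numbers before it. The Slco1a1 window, chr6:141946933-141947212 on the minus strand, held the half-site at -134 and -24. The window of Slco1a4, chr6:141856191-141856470 on the minus strand, held none of the 7 motifs. The Slc22a26 window, chr19:7802638-7802917 on the minus strand, held a STAT element at -141 and a D-box at 9. The Abcg2 window, chr6:58584283-58584562 on the plus strand, held the half-site at -212 and -121. The Abcc4 window, chr14:118706190-118706469 on the minus strand, held an E-box at -205, AHR cores at -101 and -94, an antioxidant response element at -25 and a STAT element at 3. These matches overlap no other match. Among all 32851 windows of 300 bases, which run 50 bases past the start, the half-site was found in 16.3%, the STAT element in 8.30%, the D-box in 2.32%, the E-box in 7.15%, the AHR core in 32.4%, the antioxidant response element in 12.4% and the HNF1 half-site in 7.10%. A match describes letters only.

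Restricted feeding lowered the uptake carriers Slco1a1 and Slc22a7 in both genotypes, and in wild type mice Slco1b2 as well. Slco1a1, which takes up bile acids and steroid conjugates, read 12.63, 12.62, 12.61, 12.72 and 12.63 in the 5 wild type controls and 10.89, 11.11, 10.52, 10.45 and 10.57 in restricted wild type mice. In progeroid mice it read 12.37, 12.68, 12.48, 12.52 and 12.60 on the control diet and 10.55, 11.24, 11.41, 11.83 and 11.36 on the restricted diet. The diet groups did not overlap in either genotype, and the control groups of both genotypes overlapped. Slco1a1 fell by 1.93 ± 0.162 in wild type mice, a 3.81-fold change (adjusted p = 7.17e-08), and by 1.25 ± 0.162 in progeroid mice, a 2.38-fold change (adjusted p = 5.01e-05). The SD rose from 0.0431 in wild type controls, the smallest of the 4 groups, to 0.467 in restricted progeroid mice.

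Slc22a7, an organic anion transporter, had the widest range of group means among the members, 3.26. Wild type controls lay at 10.83, 10.78, 10.89, 10.85 and 10.67 and restricted wild type mice at 8.31, 7.86, 7.70, 6.92 and 6.93. Progeroid controls lay at 10.20, 11.05, 10.92, 11.15 and 10.25 and restricted progeroid mice at 8.28, 8.47, 8.56, 9.43 and 8.25. All restricted mice were below all control mice, and the restricted groups overlapped only at their edges, through a wild type mouse at 8.31. Slc22a7 fell by 3.26 ± 0.256 in wild type mice, a 9.58-fold change (adjusted p = 2.84e-08), and by 2.12 ± 0.256 in progeroid mice, a 4.34-fold change (adjusted p = 2.65e-05).

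Slco1b2, a carrier confined largely to liver that takes up bilirubin conjugates, lay between 12.66 and 12.83 in wild type controls, with a median of 12.74. In restricted wild type mice its values were 12.43, 12.34, 11.95, 11.76 and 12.22, all below the controls. Slco1b2 fell by 0.60 ± 0.117 in wild type mice (adjusted p = 0.000842). In progeroid mice the levels overlapped, 12.63 ± 0.144 on the control and 12.45 ± 0.219 on the restricted diet, and the difference of -0.19 had a 95% confidence interval from -0.43 to 0.06 (adjusted p = 0.347).

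Slco1a4, Slc22a26 and Slco2b1 were higher in restricted than in control wild type mice. Slco1a4, the female-predominant uptake carrier, read 8.79, 9.37, 8.35, 8.91 and 9.08 in wild type controls and 11.32, 11.56, 11.33, 11.38 and 11.47 in restricted wild type mice. In progeroid mice it read 9.33, 8.37, 9.07, 8.57 and 9.89 on the control diet and 11.16, 10.98, 11.04, 10.78 and 11.18 on the restricted diet. Every restricted mouse was above every control mouse. Slco1a4 rose by 2.51 ± 0.212 in wild type mice, a 5.70-fold change (adjusted p = 7.31e-08), and by 1.98 ± 0.212 in progeroid mice, a 3.95-fold change (adjusted p = 6.43e-06). Its spread ran against that of Slco1a1: the SD was 0.606 in progeroid controls and 0.103 in restricted wild type mice.

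Slc22a26, a member of the Slc22 family found in rodents, was near the lower end of the scale in control mice of both genotypes. Wild type controls lay at 3.44, 3.69, 3.43, 4.18 and 3.66 and progeroid controls at 3.53, 3.61, 3.74, 3.72 and 3.49. Restricted wild type mice lay at 7.80, 5.98, 5.83, 5.91 and 7.87, and restricted progeroid mice at 5.29, 3.98, 4.63, 3.56 and 3.71. The restricted wild type group thus had 2 mice at about 7.8 and 3 at about 5.9, and all 5 were above every other mouse. Of the restricted progeroid mice, those at 5.29 and 4.63 were above every control mouse, and the other 3 were within the range of controls. Slc22a26 rose by 3.00 ± 0.374 in wild type mice, a 7.98-fold change (adjusted p = 8.28e-06). In progeroid mice the difference was 0.62 ± 0.374, with a 95% confidence interval from -0.16 to 1.40 (adjusted p = 0.327). RMA values near the lower end of the scale understate folds.

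Slco2b1, a carrier of sulfated steroids, changed little in comparison. It read 10.24, 10.48, 10.46, 10.31 and 10.47 in wild type controls and 10.97, 10.50, 10.76, 10.61 and 10.68 in restricted wild type mice, which did not overlap. Progeroid mice had means of 10.16 ± 0.174 on the control and 10.16 ± 0.123 on the restricted diet. Slco2b1 rose by 0.31 ± 0.0923 in wild type mice (adjusted p = 0.0190). The call was lost without the wild type control numbered 401 (0.27, adjusted p = 0.0549) or the restricted wild type mouse numbered 421 (0.24, adjusted p = 0.0566). In progeroid mice the interval of the diet difference ran from -0.19 to 0.20 (adjusted p = 0.976).

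**Figure D1:**
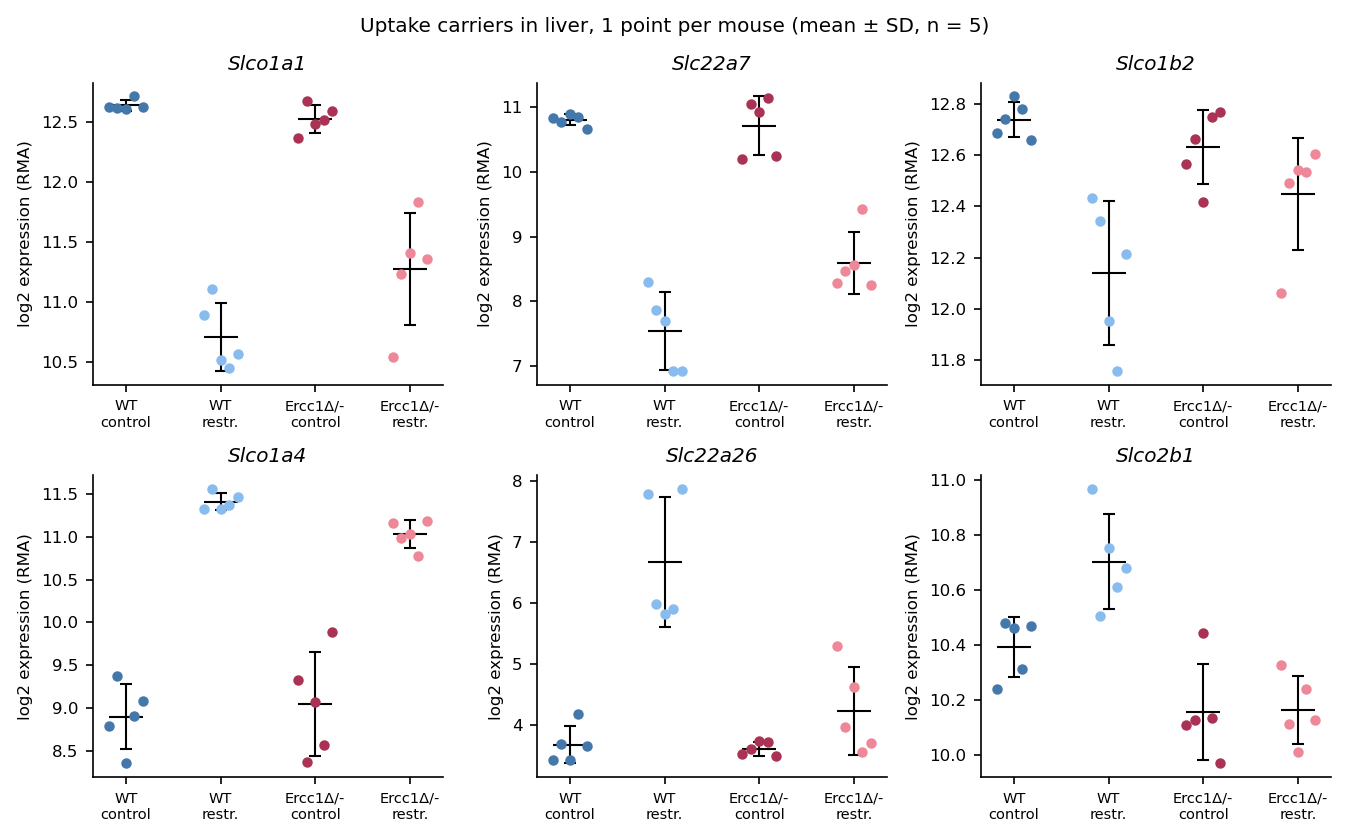
Levels of the 6 uptake genes (log2 after RMA, vertical axis) in wild type (WT) and Ercc1Δ/- mice on the control and restricted (restr.) diets; each point is a mouse and bars are the mean ± SD of 5 mice. Restricted mice lie below all controls for Slco1a1 and Slc22a7 and above all controls for Slco1a4, and the restricted wild type mice lie above all others for Slc22a26. The vertical axes differ between panels and do not start at 0.

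Among the efflux pumps, Abcg2 fell and Abcc4 rose with restriction in both genotypes, and neither Abcc2 nor Abcc3 was called for diet. Abcg2, a canalicular pump for sulfate conjugates and urate, read 10.44, 10.37, 10.64, 10.44 and 10.33 in wild type controls and 8.96, 9.22, 9.20, 9.20 and 9.17 in restricted wild type mice. In progeroid mice it read 10.28, 10.51, 10.18, 10.53 and 10.25 on the control diet and 9.79, 9.49, 9.67, 9.89 and 9.39 on the restricted diet. The restricted groups lay apart from the controls and from each other. Abcg2 fell by 1.29 ± 0.0942 in wild type mice, a 2.45-fold change (adjusted p = 1.17e-08), and by 0.70 ± 0.0942 in progeroid mice, a 1.63-fold change (adjusted p = 7.34e-05).

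Abcc4, a basolateral pump that returns conjugates to the blood, was dim on these arrays. It read 4.22, 4.15, 4.06, 3.99 and 4.00 in wild type controls and 5.12, 4.65, 5.29, 5.20 and 5.31 in restricted wild type mice. Progeroid controls lay at 4.38, 4.68, 4.23, 4.64 and 4.19 and restricted progeroid mice at 5.26, 5.03, 4.92, 4.66 and 4.89. The wild type groups did not overlap, and the progeroid groups overlapped by 1 restricted mouse at 4.66. Abcc4 rose by 1.03 ± 0.127 in wild type mice, a 2.04-fold change (adjusted p = 7.23e-06), and by 0.53 ± 0.127 in progeroid mice, a 1.44-fold change (adjusted p = 0.00936).

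Abcc3, the other basolateral pump of conjugates, read 9.75, 10.08, 9.72, 9.78 and 9.40 in wild type controls and 9.80, 8.29, 9.02, 9.61 and 9.78 in restricted wild type mice. Progeroid controls lay at 9.63, 9.77, 10.64, 10.31 and 10.00 and restricted progeroid mice at 10.12, 10.30, 10.53, 10.73 and 10.19. The restricted progeroid mice were above every wild type mouse of either diet. The diet differences were -0.45 with an interval from -0.95 to 0.06 in wild type mice (adjusted p = 0.208) and 0.30 with an interval from -0.20 to 0.80 in progeroid mice (adjusted p = 0.479). Abcc2, the canalicular pump for bilirubin glucuronide and other conjugates, varied least, with group means from 10.91 ± 0.117 in wild type controls to 11.23 ± 0.214 in restricted progeroid mice. Its diet difference in wild type mice was 0.02, with an interval from -0.21 to 0.25 (adjusted p = 0.936).

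**Figure D2:**
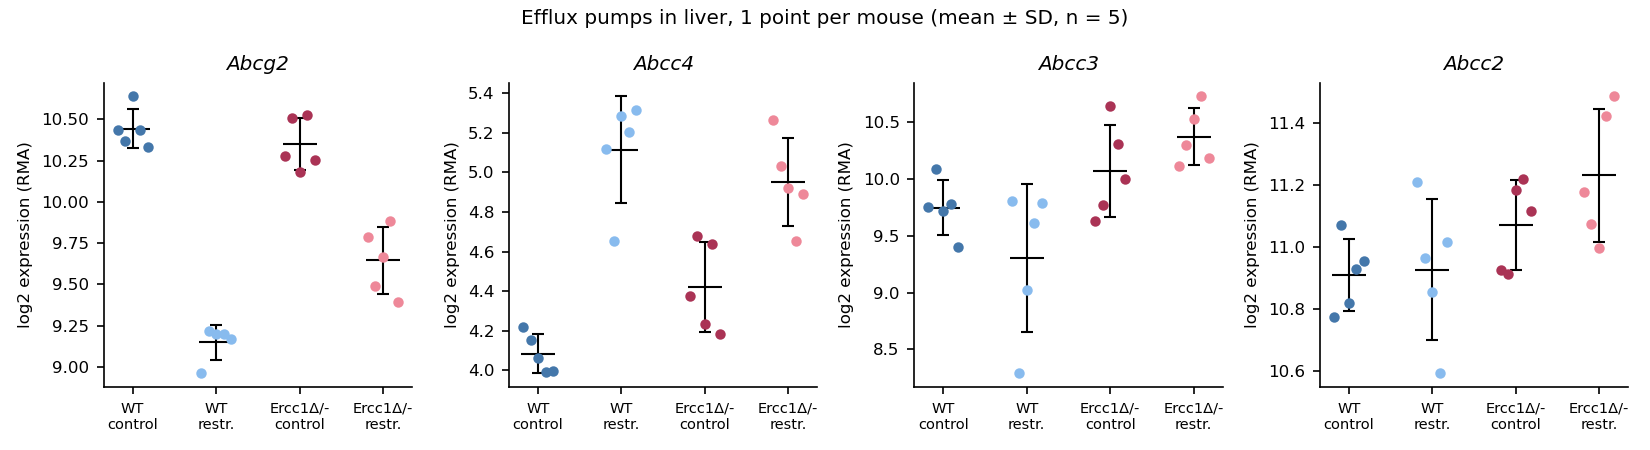
Levels of the 4 efflux genes (log2 after RMA, vertical axis) in wild type (WT) and Ercc1Δ/- mice on the control and restricted (restr.) diets; each point is a mouse and bars are the mean ± SD of 5 mice. Abcg2 is lowest in restricted wild type mice and next lowest in restricted progeroid mice, and Abcc3 in restricted progeroid mice lies above all wild type mice. The vertical axes differ between panels and do not start at 0.

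The question of how restriction acts on these genes in each genotype can be read from the counts. In wild type mice 4 members rose (Slco1a4, Slco2b1, Slc22a26 and Abcc4), 4 fell (Slco1a1, Slco1b2, Slc22a7 and Abcg2) and 2 were not called. Of all genes 9.92% rose and 12.6% fell in that comparison. In progeroid mice 2 rose (Slco1a4 and Abcc4), 3 fell (Slco1a1, Slc22a7 and Abcg2) and 5 were not called, against 6.94% and 5.07% of all genes. The median size of the diet difference, whatever its sign, was 1.16 for the members and 0.12 for all genes in wild type mice. In progeroid mice it was 0.57 for the members and 0.11 for all genes. The signed medians of the members, -0.21 and 0.08, come from a mixture of rises and falls. The members were chosen with earlier results of these data known, so an excess over all genes cannot be separated from that choice. All genes also include 8276 with a wild type control mean under 5, and among the members only Slc22a26 and Abcc4 were that dim. Both limits hold for the shares of all genes set beside member counts below. Among cell type markers 2 of 8 Kupffer cell markers fell with restriction in wild type mice and 1 rose in progeroid mice, 1 of 6 hepatocyte markers rose in wild type mice, and 1 of 2 erythroid markers fell in each genotype. Of 7 stellate cell markers 2 rose and 2 fell in wild type mice, and of 7 sinusoidal endothelial markers 1 fell. Of 5 periportal hepatocyte markers 2 rose and 1 fell in wild type mice and 1 rose in progeroid mice. Of 3 kidney tubule markers 1 fell in each genotype. The part of these cells in the diet differences was not tested.

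Without restriction no member was called between the genotypes. On the control diet 0 of 10 members were called in the limma fit, where 6.7% of all genes were higher and 4.32% lower in progeroid mice. Before adjustment 2 members had a p under 0.05, Abcc4 and Slco2b1. Abcc4 was 0.34 higher (95% confidence interval 0.07 to 0.60, adjusted p = 0.0967) and Slco2b1 0.24 ± 0.0923 lower (difference -0.24, interval -0.43 to -0.04, adjusted p = 0.112). Abcc4 passed when the restricted wild type mouse numbered 422 was left out (0.34, adjusted p = 0.0464) and with array weights (0.41, adjusted p = 0.0302). Slco2b1 passed without the progeroid control numbered 325 (-0.31, adjusted p = 0.0288) and with the mean of its probe sets (-0.22, adjusted p = 0.0416). Each of these genes passed in only 2 of its 28 alternatives. For the most changed carriers the intervals on the control diet were -0.45 to 0.23 for Slco1a1 and -0.62 to 0.44 for Slc22a7. They were -0.30 to 0.59 for Slco1a4 and -0.84 to 0.72 for Slc22a26. These intervals use the spread pooled over the 4 groups. The SD of Slc22a26 was 0.304 in wild type controls and 0.113 in progeroid controls, but 1.06 in restricted wild type mice.

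On the restricted diet 4 members were higher in progeroid than in wild type mice (Slco1a1, Slc22a7, Abcc3 and Abcg2) and 2 were lower (Slco2b1 and Slc22a26). Of all genes 11.8% were higher and 5.44% lower. Slc22a7 was 1.05 ± 0.256 higher, a 2.08-fold difference (adjusted p = 0.00646), Abcc3 1.07 ± 0.241 higher, a 2.10-fold difference (adjusted p = 0.00354), and Abcg2 0.50 ± 0.0942 higher, a 1.41-fold difference (adjusted p = 0.000892). Slc22a26 was lower by a difference of -2.44 ± 0.374, or 5.44-fold (adjusted p = 0.000115), and Slco2b1 by a difference of -0.54 ± 0.0923, or 1.45-fold (adjusted p = 0.000352).

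Slco1a1 was 0.57 ± 0.162 higher, a 1.48-fold difference (adjusted p = 0.0185), and this call was the least firm of the 6. It was lost without the restricted progeroid mouse numbered 368 (0.43, adjusted p = 0.0637), without the restricted wild type mice numbered 423 (0.52, adjusted p = 0.0502) or 424 (0.50, adjusted p = 0.0553), and when only the 2 restricted groups were fitted (adjusted p = 0.0803). Of the members not called, Slco1b2 was 0.31 higher (interval 0.06 to 0.55, adjusted p = 0.0788). It passed without the restricted progeroid mouse numbered 362 (0.40, adjusted p = 0.0125), without the restricted wild type mouse numbered 421 (0.38, adjusted p = 0.0282) and with array weights (0.34, adjusted p = 0.0246). These were 3 of 28 alternatives, over which the difference fell to 0.09 and the adjusted p reached 0.508. Its other bright probe sets gave 0.16 and 0.27 and its dim ones -0.13 and -0.15, none of them called. Abcc2 was 0.30 higher (interval 0.08 to 0.53, adjusted p = 0.0628). It passed without the restricted progeroid mouse numbered 366 (0.36, adjusted p = 0.0369), without 421 (0.37, adjusted p = 0.0211), with dim genes left out (adjusted p = 0.0466) and with the prior trend (adjusted p = 0.0463). These were 4 of 27 alternatives, over which the adjusted p reached 0.186. Slco1a4, whose restricted groups did not overlap, differed by -0.38 (interval -0.82 to 0.06, adjusted p = 0.243) and passed when only the 2 restricted groups were fitted (adjusted p = 0.00981). That was 1 of its 28 alternatives, and it passed in no other. The others all kept the control groups in the estimate of spread, so they are not separate failures. The SD of Slco1a4 was 0.376 in wild type and 0.606 in progeroid controls. In the restricted groups it was 0.103 and 0.162.

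Markers of other liver cells moved with genotype in the same samples. On the restricted diet 6 of 8 Kupffer cell markers, 3 of 7 stellate cell markers, 2 of 4 neutrophil markers and 1 of 7 sinusoidal endothelial markers were higher in progeroid mice, and 0 of 6 hepatocyte markers were called in the limma fit, with 0 at an unadjusted p under 0.05. The mean level of the Kupffer markers was 7.46 to 8.03 in restricted wild type mice and 8.17 to 8.91 in restricted progeroid mice. In the neutrophil list S100a8, Ngp and Camp lay under 5 in every group. Of 6 pericentral hepatocyte markers 1 was higher and 1 lower on the restricted diet, and of 5 periportal markers 1 was higher. On the control diet 2 of 8 Kupffer cell, 3 of 7 stellate cell and 2 of 4 neutrophil markers were higher in progeroid mice. There 1 of 7 sinusoidal endothelial markers was lower, and of 6 pericentral markers 2 were higher and 1 lower. The part of these cells in the transporter differences was not tested. Hepatocyte markers lay at 13.12 to 13.23 in restricted wild type and at 12.99 to 13.21 in restricted progeroid mice.

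The diet effect itself differed between the genotypes for 2 of 10 members, 1 in each direction, against 1.03% of all genes in the higher and 0.374% in the lower direction. For Slc22a26 the progeroid effect less the wild type effect was -2.38 ± 0.529 (adjusted p = 0.0269), and for Abcg2 it was 0.59 ± 0.133 (adjusted p = 0.0283). The Abcg2 response in progeroid mice was 54.4% of that in wild type mice on the log2 scale. The means of Slc22a26 in both progeroid groups and in wild type controls lay between 3.62 and 4.23, at the dim end of these arrays, so no share of the response is given for it. These calls were near the threshold. Over the 20 fits that each left out 1 mouse the Slc22a26 difference ranged from -2.65 to -2.08 and its adjusted p reached 0.0597, with the call lost without the restricted progeroid mice 365, 368 or 369 or the wild type controls 401 or 403. The Abcg2 difference ranged from 0.53 to 0.65 and its adjusted p reached 0.0571, with the call lost without the progeroid controls 321, 325 or 327, the restricted progeroid mice 366 or 368, the wild type controls 401 or 403 or the restricted wild type mouse 423. With a prior trend and a robust prior Slc22a26 lost its call (adjusted p = 0.0531).

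The 8 members called for diet in wild type mice had a smaller diet difference in progeroid mice, as did 89.2% of the 3842 genes called in wild type mice, so nothing particular to the members is read from it. Genes chosen by a call in 1 genotype tend to have a smaller value in the other. The progeroid value was 79.0% of the wild type value for Slco1a4, 64.9% for Slc22a7, 64.8% for Slco1a1, 51.5% for the dim Abcc4, 31.0% for Slco1b2 and 2.28% for Slco2b1. For those 6 the difference of the effects did not pass the adjusted threshold. It was 1.14 for Slc22a7 (interval 0.39 to 1.90, adjusted p = 0.130), 0.68 for Slco1a1 (interval 0.20 to 1.16, adjusted p = 0.161) and -0.50 for Abcc4 (interval -0.87 to -0.13, adjusted p = 0.190). Slc22a7 passed without the restricted wild type mouse 421 (1.33, adjusted p = 0.0368) and Slco1a1 without the restricted progeroid mouse 362 (0.86, adjusted p = 0.0132). Each passed in only 1 alternative, of 26 for Slc22a7 and 27 for Slco1a1. The diet effects of the genotypes come from separate animals, and no mouse entered both.

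**Figure D3:**
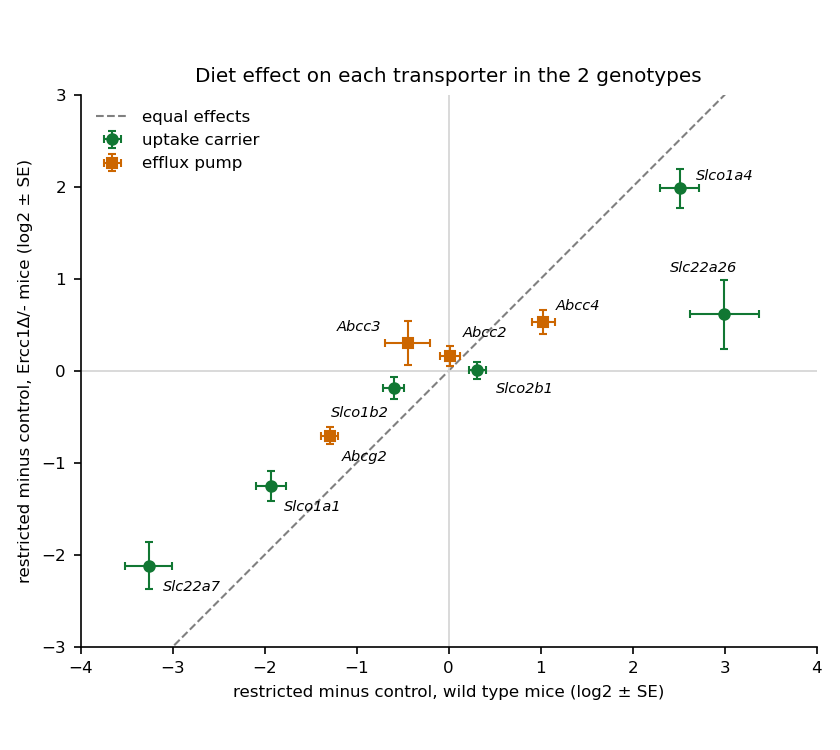
Restricted minus control level (log2 ± SE) of each member in wild type mice (horizontal axis) and in Ercc1Δ/- mice (vertical axis), with circles for uptake and squares for efflux genes and a dashed line where both effects would be equal. Slc22a7, Slco1a1 and Abcg2 lie below 0 and Slco1a4 and Abcc4 above 0 on both axes, and Slc22a26 lies farthest from the line, at 3.00 against 0.62.

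Set in order of level, 4 members shared the order restricted wild type, restricted progeroid, progeroid control, wild type control from low to high: Slco1a1, Slco1b2, Slc22a7 and Abcg2. Slco1a4 and Abcc4 had exactly the opposite order. The top neighbours of the first 4 and the lowest neighbours of the other 2, which are the control groups, overlapped and were not called in any of the 6. For Slco1a1, Slc22a7 and Abcg2 every other step was called, with restricted progeroid mice between restricted wild type mice and the controls, and for Abcg2 the groups at these steps did not overlap. For Slco1b2 no step was called (adjusted p = 0.0788, 0.347 and 0.635). The step between the restricted groups was not called for Slco1a4 (adjusted p = 0.243) or Abcc4 (adjusted p = 0.441). How many of all genes have either order was not counted. Restricted progeroid mice differed from wild type controls in 6 of 10 members, 3 higher and 3 lower, where 25.4% of all genes were called in either direction. Slc22a7 stood 2.21 ± 0.256 below wild type controls (difference -2.21, adjusted p = 2.72e-06) and Slco1a4 stood 2.13 ± 0.212 above them (adjusted p = 3.88e-07). Abcc2 was also called in that comparison, at 0.32 ± 0.110 (adjusted p = 0.0362), and Abcc3 was not (0.62 ± 0.241, adjusted p = 0.0622). Progeroid controls differed from restricted wild type mice in 9 of 10 members, 5 higher and 4 lower, where 27.9% of all genes were called. Abcc2 was the exception (0.14, adjusted p = 0.376).

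In each group some mice stood at the ends of the range of several members. The restricted wild type mouse numbered 421 was highest for 5 members and lowest for 2, the restricted wild type mouse 422 highest for 3 and lowest for 3, and the wild type control 403 highest for 3 and lowest for 3. In the restricted progeroid group the mouse 369 was highest for 3 and lowest for 2. In that group the mouse numbered 368 had the highest Slco1a1, Slc22a7, Abcc3 and Abcg2 and the lowest Slco1a4, Slc22a26 and Abcc4. The mouse numbered 362 had the lowest Slco1a1, Slco1b2 and Abcc3 and the highest Slco2b1, Slc22a26 and Abcc4. Male-biased liver genes, a list of 8 measured genes such as Elovl3 and Cyp4a12a, averaged 9.10 in mouse 368, 7.49 in mouse 362 and 7.85 to 8.23 in the other 3. Female-biased liver genes, a list of 10 measured genes such as Cyp2b9 and Acot3, averaged 5.96 in mouse 368, 7.53 in mouse 362 and 6.77 to 7.38 in the other 3. In restricted wild type mice the male-biased list averaged 6.97 to 7.49 and the female-biased list 7.52 to 8.50, and in wild type controls 11.36 to 11.80 and 4.62 to 5.12. Mouse 421, with the highest Slc22a7 and the lowest Slco1a4 of the restricted wild type group, averaged 7.27 on the male-biased and 8.46 on the female-biased list. Mouse 422, highest in that group for both Slco1a1 and Slco1a4, averaged 7.49 and 7.72. A tie between lists and members within a group was not tested.

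Where a gene had several probe sets, the bright ones moved alike. Both probe sets of Slco1a1 fell, with diet differences of -1.93 and -2.02 in wild type mice and of -1.25 and -1.22 in progeroid mice. Both probe sets of Slc22a26 rose in wild type mice, by 3.00 and 3.19, and both had a difference between genotypes of -2.38, with adjusted p = 0.0322 and 0.0440 over all 28898 named probe sets in limma. Of 5 probe sets for Slco1b2, the 3 bright ones fell in wild type mice, with differences of -0.60, -0.42 and -0.79, and the 2 dim ones, at mean levels of 3.59 and 4.38, were not called, with differences of -0.04 and 0.27. Of 3 probe sets for Slco2b1, the 2 bright ones rose in wild type mice, by 0.31 and 0.35, and the dim one, at 3.82, was not called (-0.06). The other 6 members had 1 probe set each. The representative probe sets of Slco1b2, Slco2b1, Slc22a7 and Abcc2 carry suffixes that mark probes shared between transcripts, and members of the Slco1a and Slc22a26 to Slc22a30 clusters are close in sequence, so signal shared between paralogs cannot be told apart here.

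**Figure D4:**
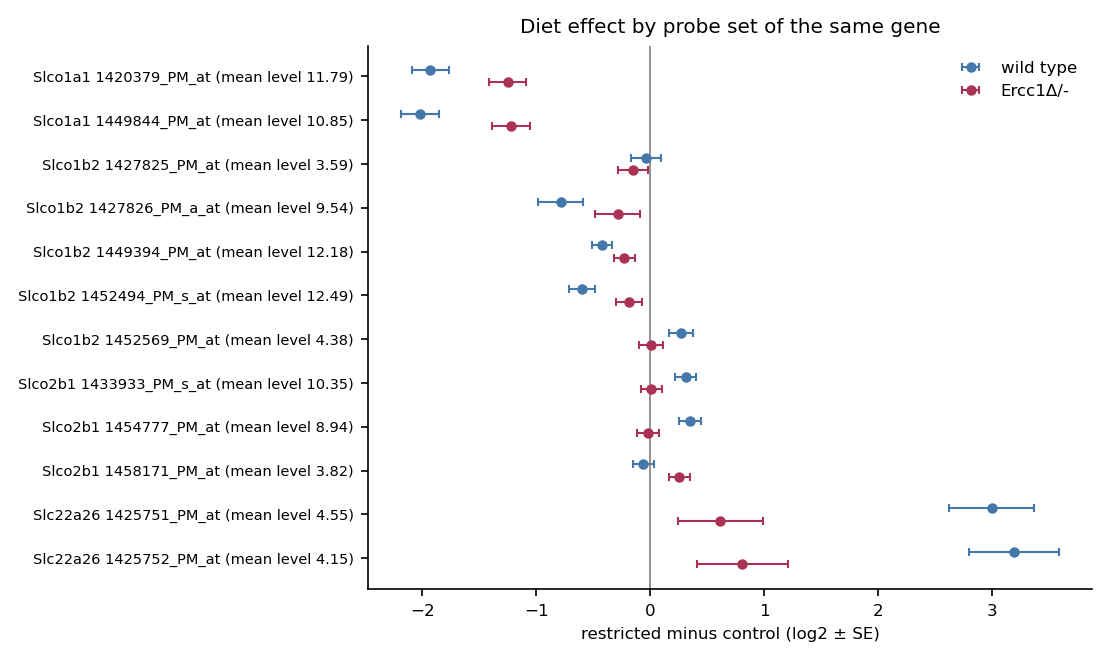
Restricted minus control level (log2 ± SE, horizontal axis) for each of the 12 probe sets of the 4 members with more than 1, in wild type and Ercc1Δ/- mice, with the mean level over 20 arrays in brackets. Probe sets of Slco1a1 and of Slc22a26 sit close together, and the probe sets of Slco1b2 and Slco2b1 with mean levels under 5 lie between -0.06 and 0.27 in wild type mice.

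The members that moved in opposite directions included neighbours on a chromosome. In the RefSeq gene table, leaving out genes that code for no protein, Slco1b2, Slco1a4 and Slco1a1 lie in 1 cluster on chromosome 6 with Slco1c1, Slco1a6 and Slco1a5, and Slco1a4 and Slco1a1 are adjacent. Slco1a4 rose where Slco1a1 fell in both genotypes. Slco1c1 was dim, at 3.33 in wild type controls and 4.06 ± 0.442 in progeroid controls. That genotype difference was called (0.74 ± 0.141, adjusted p = 0.00144), and restricted progeroid mice had a mean Slco1c1 of 3.33. With restriction Slco1c1 fell in progeroid mice (-0.73 ± 0.141, adjusted p = 0.00188) and was not called for diet in wild type mice (-0.05, adjusted p = 0.836). Slco1a5 and Slco1a6, which follow further along the cluster after Gm6614, lay at 3.42 ± 0.136 and 3.27 ± 0.117 in wild type controls and were not called for diet in wild type mice (0.13, adjusted p = 0.307, and -0.14, adjusted p = 0.281). On chromosome 19 Slc22a26 lies between Slc22a19 and Slc22a27, followed by Slc22a28, Slc22a29 and Slc22a30. Slc22a19, at 3.40 in wild type controls, was not called for diet in wild type (-0.19, adjusted p = 0.139) or progeroid mice (-0.15, adjusted p = 0.312). Slc22a8 and Slc22a6, which come after Slc22a30, were dim and were not called for diet in either genotype. Slc22a27, chosen after its values were seen, rose by 2.91 ± 0.459 in wild type mice (adjusted p = 0.000110) and by 1.55 ± 0.459 in progeroid mice (adjusted p = 0.0319). Slc22a30 fell by 1.60 ± 0.160 (adjusted p = 6.11e-07) and by 1.13 ± 0.160 (adjusted p = 0.000140).

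Other carriers and pumps of the route gave mixed counts. With restriction 9.92% of all genes rose and 12.6% fell in wild type mice, and 6.94% rose and 5.07% fell in progeroid mice. Between genotypes 6.7% were higher and 4.32% lower in progeroid mice on the control diet, and 11.8% and 5.44% on the restricted diet. These shares are the background of all list counts below, several of which lie near them, and no list was tested against them. Of 22 other measured uptake carriers of the Slco, Slc10 and Slc22 families, 3 rose and 3 fell with restriction in wild type mice and 4 rose and 3 fell in progeroid mice. Slc10a1, the sodium-dependent bile acid carrier, rose by 0.58 ± 0.0640 in wild type mice (adjusted p = 2.02e-06) and was lower in progeroid mice on the restricted diet (-0.41 ± 0.0640, adjusted p = 0.000135). Between genotypes 2 were higher and 2 lower on the control diet, where the prostaglandin carrier Slco2a1 was lower (-0.85 ± 0.109, adjusted p = 2.66e-05), and 4 were higher and 2 lower on the restricted diet. Of 15 other efflux transporters 3 rose and 3 fell in wild type mice and 5 rose and 3 fell in progeroid mice. Abcb1a, a P-glycoprotein that exports many drugs, rose by 2.22 ± 0.306 (adjusted p = 2.63e-05) and by 2.0 ± 0.306 (adjusted p = 0.000254), from 4.47 in wild type controls and 5.14 in progeroid controls. Abcc1, an exporter of glutathione conjugates that was dim at 4.00 in wild type controls, was higher in progeroid mice by 0.30 ± 0.0886 on the control diet (adjusted p = 0.0348) and by 0.70 ± 0.0886 on the restricted diet (adjusted p = 1.68e-05). On the control diet it was the only one of the 15 called, and on the restricted diet 4 were higher and 1 lower.

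Of 6 scaffold and linker proteins that hold transporters at the membrane, 2 fell with restriction in wild type mice and 1 in progeroid mice. Pdzk1, a PDZ scaffold, fell by 0.31 ± 0.0715 (adjusted p = 0.00361) and by 0.29 ± 0.0715 (adjusted p = 0.0119). Moesin (Msn), which links membrane proteins to actin, was higher in progeroid mice by 0.36 ± 0.0832 on the control diet (adjusted p = 0.00613). Of the 6, 1 was higher and 1 lower on that diet, and 2 were higher and 2 lower on the restricted diet.

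Among 15 measured transcription factors and receptors that control transporter genes, 4 rose and 2 fell with restriction in wild type mice and 2 rose in progeroid mice. Nr1i3, the constitutive androstane receptor (CAR), rose by 1.0 ± 0.157 in progeroid mice (adjusted p = 0.000330) and by 0.55 ± 0.157 in wild type mice (adjusted p = 0.0155). Arnt, the partner of AHR, rose by 0.34 ± 0.0711 in wild type mice (adjusted p = 0.00158). On the control diet 3 were higher and 2 lower in progeroid mice. Nfe2l2, which encodes the oxidant response factor NRF2, was 0.65 ± 0.117 higher (adjusted p = 0.000825), and Hnf4a, a factor that maintains hepatocyte genes, was lower by a difference of -0.37 ± 0.0748 (adjusted p = 0.00226). On the restricted diet 2 were higher and 2 lower, and Hnf4a differed by -0.27 ± 0.0748 (adjusted p = 0.0147).

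Target genes of these factors, from lists of textbook targets, gave mixed counts. Of 9 NRF2 targets 3 were higher in progeroid mice on the control diet and 5 on the restricted diet, and none was lower in these 2 comparisons. Nqo1, a quinone reductase, was 1.28 ± 0.150 higher on the control diet (adjusted p = 1.01e-05), and Srxn1, which repairs oxidised peroxiredoxins, was 1.07 ± 0.136 higher on the restricted diet (adjusted p = 1.86e-05). With restriction 1 NRF2 target rose in each genotype, Nqo1 (1.58 ± 0.150 in wild type mice, adjusted p = 3.21e-07), and 3 fell in wild type mice. Of 7 targets of CAR and the pregnane X receptor 2 rose and 2 fell with restriction in wild type mice, and 2 rose in progeroid mice. Cyp2c37, a cytochrome P450, rose by 1.67 ± 0.266 (adjusted p = 0.000118) and by 1.49 ± 0.266 (adjusted p = 0.000970). Cyp2b10, the classic CAR target, was lower in restricted progeroid than in restricted wild type mice (-4.15 ± 0.699, adjusted p = 0.000304). Between genotypes 2 of these 7 were lower on the control diet, Ces2a among them (-0.88 ± 0.175, adjusted p = 0.00200), and 2 were higher and 2 lower on the restricted diet.

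Of 6 AHR targets 1 rose and 1 fell with restriction in wild type mice and 1 fell in progeroid mice. Cyp1a2 fell by 1.48 ± 0.283 in wild type mice (adjusted p = 0.000699) and by 0.97 ± 0.283 in progeroid mice (adjusted p = 0.0294). Tiparp, which dampens AHR signalling, was lower in progeroid mice on the restricted diet (-0.45 ± 0.116, adjusted p = 0.0101), the only AHR target called between genotypes on that diet. Of 7 targets of PPARalpha, the receptor of the fasting response, 2 rose and 1 fell in wild type mice and 3 rose in progeroid mice. Ehhadh, an enzyme of peroxisomal fat oxidation, rose by 0.70 ± 0.119 in progeroid mice (adjusted p = 0.000589), and Fgf21, a fasting hormone, fell by 1.45 ± 0.321 in wild type mice (adjusted p = 0.00243). Acot1, an acyl-CoA thioesterase, was lower in progeroid controls (-1.81 ± 0.262, adjusted p = 9.43e-05), the only one of the 7 called on the control diet.

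Glucuronosyltransferases, such as those of the Ugt2 family, make conjugates that these pumps export. Of 8 measured UDP-glycosyltransferases of the Ugt2 and Ugt3 families, 5 fell with restriction in each genotype and none rose. Ugt2b1 fell by 1.16 ± 0.113 in wild type mice (adjusted p = 4.79e-07) and by 0.72 ± 0.113 in progeroid mice (adjusted p = 0.000324). Ugt3a1 fell by 1.31 ± 0.149 in progeroid mice (adjusted p = 1.25e-05) and was lower in progeroid mice on the control diet (-0.97 ± 0.149, adjusted p = 0.000177) and on the restricted diet (-1.01 ± 0.149, adjusted p = 8.55e-05). On the control diet it was the only one of the 8 called, and on the restricted diet 2 were higher and 3 lower in progeroid mice.

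Sex-biased liver genes moved the way of Slco1a1 and Slco1a4, which are themselves known as sex-biased and are not on these lists. Of 8 male-biased genes 7 fell with restriction in wild type mice and 8 in progeroid mice, with medians of -3.67 and -2.90. Cyp4a12a fell by 7.91 ± 0.379 in wild type mice (adjusted p = 3.89e-11) and Elovl3 by 4.74 ± 0.335 in progeroid mice (adjusted p = 9.96e-08). Of 10 female-biased genes 8 rose in each genotype, with medians of 3.15 and 2.05. Cyp2b9 rose by 7.05 ± 0.597 in wild type mice (adjusted p = 7.66e-08) and Acot3 by 4.77 ± 0.394 in progeroid mice (adjusted p = 2.91e-07).

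Between genotypes sex-biased genes were called in both directions. On the restricted diet 4 male-biased genes were higher and 1 lower in progeroid mice, with Cyp4a12a at 2.89 ± 0.379 (adjusted p = 2.63e-05), and 2 female-biased genes were higher and 4 lower, with Cyp2b13 at -3.93 ± 0.461 (adjusted p = 7.13e-06). On the control diet 1 male-biased gene was higher, Selenbp2 (0.49 ± 0.106, adjusted p = 0.00393), and 1 lower, and 2 female-biased genes were lower, Abcd2 among them (-1.26 ± 0.325, adjusted p = 0.0142). The diet effect differed between the genotypes for 3 male-biased genes in the higher and 1 in the lower direction, with Cyp4a12a at 3.80 ± 0.535 (adjusted p = 0.00192), and for 1 female-biased gene, Cyp2b13 (-3.75 ± 0.652, adjusted p = 0.00747). The median of all genes lay between -0.03 and 0.02 in these 5 comparisons.

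Some genes outside the family followed the same course over the 20 arrays. Likeness was measured as the root mean square difference of the centred log2 values, and the 3 nearest genes were taken for each of the 3 members with the widest range of group means. Nearest to Slc22a7 were C8a (0.43) and C8b (0.48), which encode chains of a complement component, and Spsb4 (0.55), against 1.45 for the distance of Slc22a7 from its own mean. C8a fell from 12.49 in wild type controls to 9.62 in restricted wild type mice and stood at 10.84 in restricted progeroid mice. Nearest to Slco1a4 were Cyp39a1 (0.35), an oxysterol hydroxylase, Ildr2 (0.39) and Trim24 (0.39), against 1.18. Nearest to Slc22a26 were the glucose carrier Slc2a4 (0.73), the arsenic methyltransferase As3mt (0.73) and Hamp2 (0.77), against 1.38, so that its neighbours were less close. Hamp2 stood at 12.77 in restricted wild type mice and at 10.90 to 11.04 in the other 3 groups.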

How the data were processed

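Each sample's title gave its group, 4 groups of 5 mice, with 1 liver array per mouse. The deposited table holds log2 expression of 45141 probe sets, and the submitters' processing notes name RMA as the method the authors used. No version of RMA or of the array's probe set definition was found in the labels. RMA forces all arrays to a common distribution, so a shift of all genes together cannot be seen, and array medians ran from 4.17 to 4.21. Each gene has 1 estimate of spread, shared by the 4 groups of 5 arrays. Its SE is therefore the same in every comparison of 2 groups. The SD of the compared groups alone can be smaller or larger.

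Gene names came from the platform's annotation table. Of 28898 probe sets with a single symbol, 28689 matched RefSeq (GRCm38.p6) by Entrez ID and 0 symbols changed. Left out were 551 probe sets with several symbols, 15588 without any and 104 controls. The brightest probe set on average stood for each of 17097 genes.

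Group means were fitted jointly to the 20 arrays (lmFit, eBayes; limma 3.58.1, R 4.3.3), leaving 16 degrees of freedom. Tests were two-sided, with Benjamini-Hochberg adjustment over all genes of a comparison. Alternatives were array weights, a trended and robust prior, the mean of a gene's probe sets, suffixed probe sets left out, all probe sets tested, genes without a group mean of at least 5 left out, median centring, only the compared groups fitted, and each mouse left out in turn.

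The 10 members and the gene lists were chosen with earlier results of these data known. The text names the members, Ercc1, from each list the called gene with the smallest adjusted p in each comparison of genotype or diet, and the 3 genes nearest to each of 3 members. Some of them are also given in further comparisons. Outside this rule are the cluster neighbours Slco1c1, Slco1a5, Slco1a6, Slc22a19, Slc22a27, Slc22a8 and Slc22a6 and the dim neutrophil markers. Animals are separate, and no animal number occurs in more than 1 group.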

Additional observations from a re-analysis of the deposited data

Results flagged for a closer look

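Of 40 sets of 5 values (10 members in 4 groups), 4 held a mouse whose gap to the nearest other value exceeded Dixon's 95% critical value of 0.71 of the range. Chance gives about 1 such set in 20. Slc22a7 in the restricted progeroid mouse 368 was 9.43, above the next value of 8.56. Slco1b2 in the restricted progeroid mouse 362 was 12.06, below the next value of 12.49. Abcg2 in the restricted wild type mouse 421 was 8.96, below the next value of 9.17. Slco1a1 in the wild type control 404 was 12.72, above the next value of 12.63, in the group with the smallest spread. The diet effect differed between the genotypes by -2.38 for Slc22a26 and by 0.59 for Abcg2 in limma's test of the difference.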

How the results depend on the processing

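Over 50 results, a member in a comparison, leaving out 1 mouse kept the direction and the side of the threshold in 961 of 1000 refits, lost a call in 18, gained 1 in 8 and reversed the sign in 13. The other alternatives did so in 369, 2, 6 and 3 of 380. The 1000 refits include those without a mouse of a group that a comparison of 2 groups does not use. Such a refit cannot change the difference, only its spread, so the count of 961 overstates stability. The count of members called for genotype on the control diet rose from 0 to 1 with the mean of all probe sets and with array weights. The count for the difference of the diet effects fell from 2 to 1 with a trended and robust prior. With 1 mouse left out these counts ranged from 0 to 1 and from 0 to 3, and those for genotype on the restricted diet, diet in progeroid mice and diet in wild type mice from 5 to 8, 5 to 5 and 7 to 8.

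All sign reversals were of differences that were not called. With array weights Slc22a7 on the control diet was 0.0209 and Slco2b1 for diet in progeroid mice -0.0152, and without suffixed probe sets the latter was -0.0218. With 1 mouse left out, Slc22a7, Slco1a4 and Slc22a26 on the control diet ranged from -0.198 to 0.0383, -0.0659 to 0.313 and -0.123 to 0.0634. Slco2b1 for diet in progeroid mice ranged from -0.0399 to 0.0787 and Abcc2 for diet in wild type mice from -0.0529 to 0.101.

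Without suffixed probe sets Slc22a7 and Abcc2 have no value. No paired analysis was possible because the groups share no animal numbers. RMA compresses changes near the lower end of the scale, where Slc22a26 and Abcc4 lay in control mice.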
